A study of Mus musculus with 4 samples.

Results

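Scavenger receptors are surface proteins through which macrophages take up modified lipoproteins, bacteria, dead cells and many other polyanionic particles. The genes described here are 8 such receptors: Marco, Msr1, Cd36, Scarb1, Scarb2, Stab1, Olr1 and Lrp1. They were chosen by gene symbol, as probe sets whose annotation names 1 of these genes alone. Earlier results of these data were known at that choice, so counts among the 8 are descriptive and no independent result. All 8 were measured, with 1 probe set each, among 19938 genes with such a probe set.

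The arrays came from mouse bone marrow cultures (B6 background) grown for 6 days with 20 ng/ml GM-CSF, a growth factor that yields macrophages and dendritic-type cells, and then given heme or its vehicle. The 4 groups were Bach1 (-/-) with heme, Bach1 (-/-) with vehicle, Bach1 (+/+) with heme and Bach1 (+/+) with vehicle, at 40 µM heme (the labels print µm) or 0.15 M NaCl with 10% NH4OH as vehicle. RNA was taken 24 hours later from adherent cells only, so floating cells are not represented. Each group held 1 array, which leaves every difference below without a replicate check and without a p-value.

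The receptors fall into structural classes. Marco and Msr1 are class A receptors, collagen-like trimers that bind bacteria, particles and modified LDL. Cd36, Scarb1 and Scarb2 form class B, which handles fatty acids, oxidized LDL, HDL and, in the case of Scarb2, traffic to lysosomes. Olr1 is a lectin-like receptor of oxidized LDL, Stab1 a multidomain clearance receptor, and Lrp1 a large endocytic receptor of the LDL receptor family that takes up heme bound to hemopexin. Bach1 is a transcriptional repressor that heme releases from DNA.

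Median signals of the 35556 probe sets were 31.1 and 31.4 on the Bach1 (-/-) heme and vehicle arrays and 30.9 and 30.4 on the wild-type heme and vehicle arrays. A signal of 30.96 (log2 4.95), the overall median, served as the level floor. Calls of higher or lower needed a difference of at least 2-fold and a brightest array at or above that floor. The Bach1 probe set itself read 204 and 211 on the arrays labelled Bach1 (-/-) with heme and vehicle, against 264 and 212 on the wild-type arrays with heme and vehicle. It did not separate the genotypes. Whether this probe set covers the deleted stretch is not stated in the labels or files used here, so it checks nothing and the arrays are called labelled knockout. Macrophage markers were at level for 9 of 9 measured genes, with summed signals of 22450 and 22570 on the labelled knockout heme and vehicle arrays and 21250 and 22550 on the wild-type ones. Lyz2, the largest part of these sums, read between 9990 and 10710. Of the 7 measured B, T and NK cell markers and the 5 of mast cells and basophils, 0 reached the floor on any array.

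Marco was the only 1 of the 8 genes called at 2-fold in any comparison. Its signal was 898 with heme and 605 with vehicle on the labelled knockout arrays, and 342 with heme and 115.5 with vehicle on the wild-type arrays. Both labelled knockout arrays therefore lay above both wild-type arrays, and within each genotype the heme array lay above the vehicle array. The span of 2.96 on the log2 scale, 7.78-fold between the brightest and dimmest array, was exceeded by 13 of 11155 genes that reached the floor on any array. The wild-type vehicle array was the low one, 2.96-fold below the next, while the other gaps were smaller.

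At the other end, Cd36 had nearly the same signal on every array: 1717 and 1632 on the labelled knockout heme and vehicle arrays, and 1681 and 1649 on the wild-type heme and vehicle arrays. Its span was 0.07 on the log2 scale (1.05-fold), and 145 of the 11155 genes had a smaller one. The remaining 6 genes spanned 0.31 (Scarb1) to 0.88 (Olr1). Olr1 and Lrp1, with a span of 0.73, lay at percentiles 91.0 and 85.4 of all genes, and Scarb1, Msr1, Scarb2 and Stab1 between percentiles 34.6 and 55.8.

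**Figure D1:**
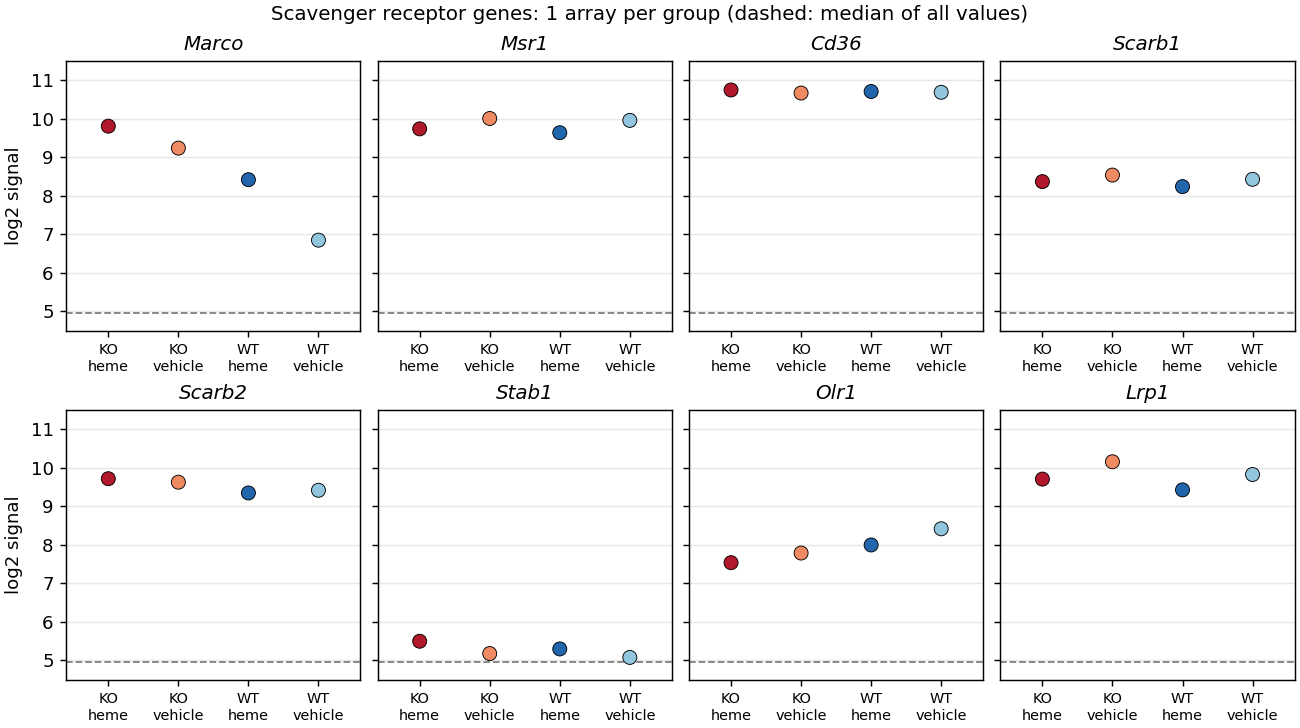
Log2 signal (vertical axis) of the 8 scavenger receptor genes, 1 panel each, on the 4 arrays (horizontal axis; KO stands for labelled knockout, WT for wild type), with the level floor of 4.95 as a dashed line. Each point is 1 array. Marco runs between log2 9.81 on the labelled knockout heme array and 6.85 on the wild-type vehicle array, Olr1 runs the opposite way (7.54 and 8.42), and Cd36 stays between 10.67 and 10.75.

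The 8 genes sorted by array into 4 kinds of pattern. Marco and Scarb2 were higher on both labelled knockout arrays than on both wild-type arrays, an order found in 17.1% of the 11155 genes. Olr1 was lower on both labelled knockout arrays, as were 18.0% of genes. Cd36 and Stab1 were higher on both heme arrays than on both vehicle arrays (21.4% of genes), though the Cd36 values differ by only a few percent. Msr1, Scarb1 and Lrp1 were lower on both heme arrays (19.5% of genes). Because the background shares are this large, such an order alone does not set a gene apart.

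The 250 bases before the annotated start are shown for the 3 genes whose labelled knockout arrays both lay on one side of the wild-type arrays (RefSeq, GRCm38.p6, all on the minus strand, read toward the gene). The windows are chr1:120505025-120505274 for Marco, chr5:92505658-92505907 for Scarb2 and chr6:129507166-129507415 for Olr1. Capitals mark matches to either of 2 motifs searched on both strands, the AP-1 and Bach core TGANTCA and the antioxidant response element core TGACNNNGC.
Marco: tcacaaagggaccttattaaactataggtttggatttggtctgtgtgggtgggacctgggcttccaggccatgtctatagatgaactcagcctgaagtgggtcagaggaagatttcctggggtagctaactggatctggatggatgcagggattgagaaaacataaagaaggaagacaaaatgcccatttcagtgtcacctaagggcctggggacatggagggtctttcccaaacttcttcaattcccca
Scarb2: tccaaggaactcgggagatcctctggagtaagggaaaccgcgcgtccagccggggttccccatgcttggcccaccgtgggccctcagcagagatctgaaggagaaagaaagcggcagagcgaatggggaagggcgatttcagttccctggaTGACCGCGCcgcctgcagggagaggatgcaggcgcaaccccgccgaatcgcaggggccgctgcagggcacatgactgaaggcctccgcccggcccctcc
Olr1: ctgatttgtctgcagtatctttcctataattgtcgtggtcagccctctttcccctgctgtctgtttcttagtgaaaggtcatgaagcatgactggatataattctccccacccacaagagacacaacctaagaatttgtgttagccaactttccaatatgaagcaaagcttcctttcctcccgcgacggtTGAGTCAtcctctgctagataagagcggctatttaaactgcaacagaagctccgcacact

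Olr1 held the letters TGAGTCA, which start 60 bases before the annotated start, and Scarb2 held TGACCGCGC, which starts 99 bases before it. Marco held neither motif in this window. Of 32851 such windows in the promoter table, 6.75% held TGANTCA, 10.2% held TGACNNNGC and 16.1% held at least 1 of them. Windows were listed for 6 of the 8 genes and 3 had a match, among them Lrp1 with TGACNNNGC on the opposite strand. Msr1 and Scarb1 had no window listed. A match describes letters in this stretch, and binding was not measured.

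The first comparison asks how the receptors respond to heme in wild-type cells. Marco, which binds bacteria and inhaled particles on resident macrophages, was 2.96-fold higher with heme in wild-type cells (342 with heme, 115.5 with vehicle), a log2 difference of 1.57. It was the only receptor called higher, 1 of 8 against 1.17% of the 10772 genes at level, and 0 of 8 were called lower against 0.891%. At Marco, 35 genes had a larger increase. A 3-fold rule, passed by 0.455% of genes, left none of the 8. The robust SD of all log2 differences was 0.28 in this comparison, a width that mixes noise with real differences. It was passed in either direction by 34.1% of genes at level, so passing it does not set a gene apart.

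The other receptors were lower with heme or close to their vehicle value. Olr1 read 255.8 with heme and 343.4 with vehicle in wild type (-0.42), and Lrp1 read 692 and 910 (-0.40). Msr1, which takes up acetylated LDL, read 798.5 with heme and 995 with vehicle (-0.32). These 3 differences were wider than the robust SD, while those of Scarb1 (-0.20), Scarb2 (-0.07), Cd36 (0.03) and Stab1 (0.22) were not. The median over the 8 genes was -0.13, beside -0.01 over all genes at level. Of the 8, 5 were below 0 and 3 above, where 48.6% of all genes at level were above 0.

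In the labelled knockout the same comparison asks which of these differences with heme are seen in cells labelled Bach1 (-/-). None of the 8 receptors was called: 0 were higher at 2-fold, as were 1.20% of 10843 genes at level, and 0 lower, as were 0.452%. Marco read 898 with heme and 605 with vehicle, 1.48-fold higher (0.57), and 585 genes had a larger increase. Lrp1 read 836 with heme and 1146 with vehicle (-0.46), so that its log2 difference was close to that in wild type. Stab1, a receptor that clears acetylated LDL and the matrix protein SPARC, read 45.4 with heme and 36.1 with vehicle (0.33). Marco, Lrp1 and Stab1 were the 3 genes past the robust SD of 0.28, as were 32.95% of all genes at level. With 32 added to each signal Stab1 stood at 0.18.

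Msr1 read 857.5 with heme and 1032 with vehicle in the labelled knockout (-0.27), and Olr1 read 187 and 222 (-0.25). Scarb1, the HDL receptor, read 330.2 with heme and 373 with vehicle (-0.17). Scarb2, a lysosomal membrane protein, read 842 and 795 (0.08), and Cd36 differed by 0.07. The median of the 8 was -0.05, beside 0.02 over all genes at level. The heme difference had the same sign in both genotypes for 7 of the 8 genes, all but Scarb2, and for 60.2% of the 11155 genes, in 2 comparisons that share no array.

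The difference between the 2 heme responses asks how far the response depends on the genotype. For Marco it was -0.999 on the log2 scale, the labelled knockout response minus the wild-type response, and corresponds to a 1.998-fold smaller ratio of heme to vehicle in the labelled knockout. That is just short of the 2-fold rule, and 100 of 11155 genes had a lower value. Only the ratio was smaller. In signal units Marco rose from 605 to 898 in the labelled knockout and from 115.5 to 342 in wild type, a rise not smaller in the labelled knockout. The call changed with small adjustments: after a repeated quantile normalization the value was -1.01 and after lowess centring -1.07, both past 2-fold, and with 32 added to each signal it was -0.80. As deposited, 0 of 8 genes were called higher (1.17% of all genes) and 0 lower (0.879%), and under a 1.5-fold rule, which 11.4% of genes passed in either direction, Marco alone was called.

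For the other 7 receptors the difference between the responses lay between -0.06 (Lrp1) and 0.17 (Olr1), inside the robust SD of 0.32. Of all genes at level, 34.0% were past that width. The median of the 8 was 0.05, beside 0.03 over all genes. With 1 array per group, the interval of these differences is not known, and a small value does not show that the responses were alike.

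The 2 vehicle arrays compare the genotypes, as labelled, without added heme. Marco was 5.24-fold higher in the labelled knockout (605, against 115.5 in wild type), a log2 difference of 2.39, and 2 of 10859 genes had a larger increase. It was 1 of 8 receptors called higher (0.525% of all genes), and 0 were called lower (1.14%). Olr1 was next in size and opposite in direction, with 222 in the labelled knockout and 343 in wild type (-0.63), 1.55-fold lower. A 1.5-fold rule, passed by 7.56% of genes, added Olr1 to Marco.

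Lrp1 read 1146 in labelled knockout vehicle and 910 in wild-type vehicle (0.33), the third difference wider than the robust SD of 0.27. That width was passed by 33.6% of all genes at level. Scarb2 read 795 and 684 (0.22) in the same order of arrays. Scarb1 (0.11), Stab1 (0.10), Msr1 (0.05) and Cd36 (-0.01) were nearer to 0. The median was 0.10, beside -0.02 over all genes at level.

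With heme in both cultures, the comparison of genotypes uses neither vehicle array, so the low wild-type vehicle value of Marco does not enter. Marco was still 2.62-fold higher in the labelled knockout (898, against 342 in wild type; log2 difference 1.39), and 9 of 10790 genes had a larger increase. It was again 1 of 8 called higher (0.519% of genes) with 0 lower (0.973%), and a 3-fold rule, passed by 0.306%, left none. Olr1 read 187 in the labelled knockout and 255.8 in wild type (-0.46). Scarb2 read 842 and 651 (0.37), and Lrp1 read 836 and 692 (0.27).

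These 4 differences were wider than the robust SD of 0.25, and those of Stab1 (0.20), Scarb1 (0.13), Msr1 (0.10) and Cd36 (0.03) were narrower. Of all genes at level, 33.6% were past that width. The median of the 8 receptors was 0.17, beside 0.01 over all genes at level. Between vehicle and heme, which share no array, the sign of the genotype difference was the same for 7 of 8 receptors, all but Cd36, and for 57.2% of the 11155 genes.

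**Figure D2:**
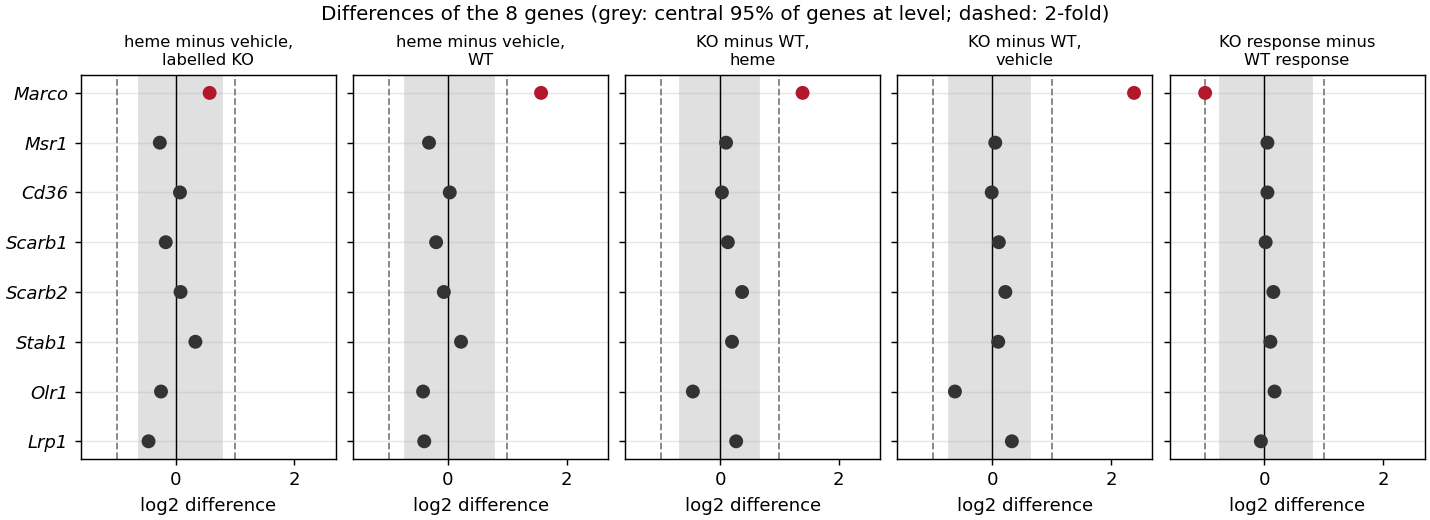
Log2 differences (horizontal axis) of the 8 genes (rows) in the 5 comparisons, 1 point per gene and panel, with Marco in red. KO stands for labelled knockout and WT for wild type, the grey band holds the central 95% of all genes at level, and dashed lines mark 2-fold. Marco lies inside the band for heme in the labelled knockout (0.57) and outside it at 1.57, 1.39, 2.39 and -0.999 in the other panels, and the other 7 genes lie inside the band in every panel.

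Markers of other cell types moved with the genotype and are given beside the Marco result. Cd74 and H2-Ab1 make up most of the signal of the 10 dendritic cell markers. Together the 10 summed to 2310 and 2965 on the labelled knockout heme and vehicle arrays, and to 7218 and 9469 on the wild-type ones. That order over the 4 arrays is the reverse of Marco's and the same as that of Olr1. Of the 7 at level, 6 were called lower in the labelled knockout with either treatment (0.973% of all genes with heme, 1.14% with vehicle). Itgax, at -0.44 with heme and -0.46 with vehicle, was not. Flt3, Zbtb46 and Cd209a were below the floor on every array. The 9 measured macrophage markers had a median genotype difference of 0.02 with heme and -0.05 with vehicle. Among them Fcgr1 was called lower in the labelled knockout with vehicle (-1.48), 1 of 9 beside 1.14% of all genes. With heme in wild type Fcgr1 was also called lower (-1.51), 1 of 9 beside 0.891%. In the difference between the heme responses Fcgr1 was called higher (2.005-fold), 1 of 9 beside 1.17%. In adherent cells taken in bulk, fewer cells of a type and less RNA per cell cannot be told apart, and the part of cell makeup in the Marco and Olr1 differences was not tested.

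The 10 neutrophil markers, of which S100a8 and S100a9 make up most of the signal, summed to 9706 with heme and 7266 with vehicle in the labelled knockout, and to 12410 with heme and 9129 with vehicle in wild type. The median heme difference over all 10, whether or not at level, was 0.17 for the labelled knockout and 0.41 for wild type. With heme in wild type, 2 of 8 at level were called higher (1.17% of all genes), Cxcr2 (1.60) and Retnlg (1.22), and 0 lower (0.891%). In the labelled knockout 0 of 9 at level were called higher (1.20%) or lower (0.452%). The median genotype difference was -0.21 with heme and 0.11 with vehicle. Between genotypes, Cxcr2 was called lower in the labelled knockout with heme (-1.22) and Retnlg higher with vehicle (1.36). Each was 1 of 9 at level, beside 0.973% and 0.525% of all genes. In the difference between the heme responses Cxcr2 was called lower (-1.40), 1 of 9 at level beside 0.879% of all genes. There 0 were called higher, beside 1.17%. Retnlg and Camp had the same order of arrays as Marco. Retnlg read 224.5 and 133 on the labelled knockout heme and vehicle arrays and 120.1 and 51.7 on the wild-type ones. Camp read 189.5 and 177.7 on the labelled knockout heme and vehicle arrays and 161.4 and 125.5 on the wild-type ones. The other markers of the list, S100a8 and S100a9 among them, did not have that order. The part of neutrophil content in the Marco differences was not tested.

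The genes whose profile over the 4 arrays was nearest to Marco's were found by the Euclidean distance between log2 profiles, each centred on its own mean, among 10498 other genes that reached the floor on any array, leaving out predicted and clone-named genes, small RNAs, olfactory and vomeronasal receptors, and immunoglobulin and T cell receptor segments. The nearest was Slc40a1, the iron exporter ferroportin, at a distance of 0.79, followed by Retnlg, a neutrophil gene related to resistin (0.81), and Hmox1, the enzyme that degrades heme (0.97). The next were Akr1b8, an aldo-keto reductase gene (1.04), and Zfp418, a zinc finger gene (1.09). Only the first 3 were nearer than 1, the median distance was 2.25, and a flat profile would lie at 2.23.

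Slc40a1 read 787 and 512 on the labelled knockout heme and vehicle arrays and 290 and 52.7 on the wild-type ones, the same order of arrays as Marco with a wider span of 3.90. Retnlg spanned 2.12 on that scale. Hmox1 differed from Marco on the wild-type heme array, where its 9881 was close to the 10330 and 9047 of the labelled knockout arrays with heme and vehicle, while wild-type vehicle was at 1827. The likeness rests on 4 values per gene and on the low wild-type vehicle array that all of these genes share. That array lay below the floor for Akr1b8 (27.0). For Zfp418 the wild-type heme (22.2) and vehicle (16.5) arrays both did, so the size of their differences is uncertain.

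**Figure D3:**
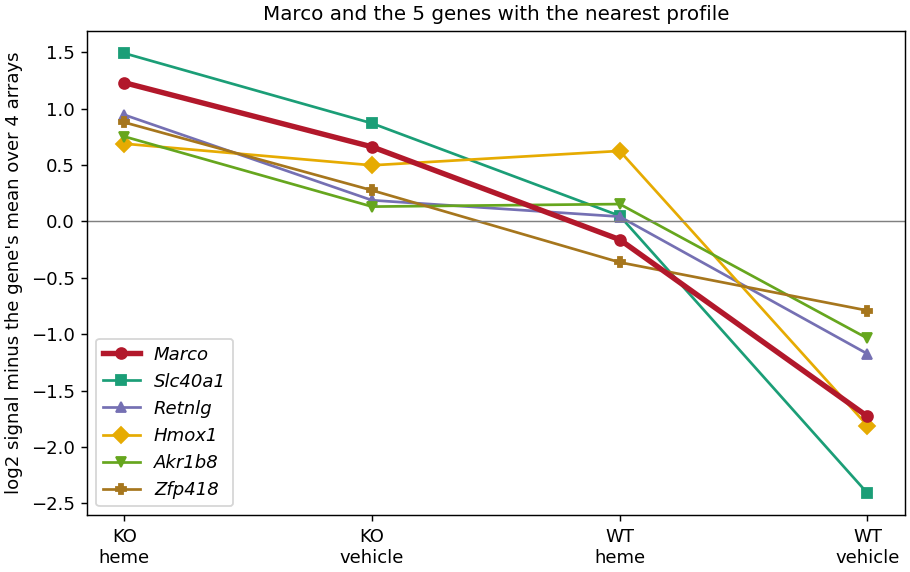
Log2 signal minus each gene's own mean over the 4 arrays (vertical axis) for Marco (thick red line) and the 5 genes nearest to it, on the labelled knockout (KO) and wild-type (WT) arrays (horizontal axis); lines join values of 1 gene and imply no order in time. All 6 genes are lowest on the wild-type vehicle array, and Hmox1 leaves the group on the wild-type heme array with a signal of 9881.

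Of other receptors of the scavenger type, 16 genes fixed as a list, 8 were at level in each comparison of 2 arrays. With heme, 0 were called in either genotype. Of all genes at level, 1.20% were higher and 0.452% lower in the labelled knockout, and 1.17% and 0.891% in wild type. The median heme difference over all 16 measured genes, those below the floor included, was -0.10 for the labelled knockout and -0.12 for wild type. Mrc1, the mannose receptor, had the widest difference in wild type among those at level, 539 with heme against 975 with vehicle (-0.86). Between genotypes 1 of the 8 at level was called lower with either treatment (0.973% of all genes with heme, 1.14% with vehicle). None was called higher (0.519% and 0.525%). The called gene was Cxcl16, a membrane-bound chemokine that also binds oxidized LDL. Cxcl16 read 121.8 and 140 on the labelled knockout heme and vehicle arrays and 250.5 and 406 on the wild-type ones, which is 2.06-fold lower in the labelled knockout with heme and 2.89-fold lower with vehicle. With 32 added to each signal the log2 difference with heme was -0.88 and no longer 2-fold. The 4 arrays stood in the same order at Cxcl16 as at Olr1. The hemoglobin receptor gene Cd163 read between 9.50 and 10.9 on the 4 arrays, below the floor.

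Of the LDL receptor family beside Lrp1, 14 of 15 listed genes were measured, 9 were at level and 0 were called in any of the comparisons. Of all genes at level, 0.452% to 1.20% were called in each direction, so 0 among so few does not set the list apart. Lrp8, the receptor of reelin and apolipoprotein E, read 112 with heme and 75.3 with vehicle in the labelled knockout (0.57), and 119 with heme and 67.9 with vehicle in wild type (0.81). Lrp6, a Wnt co-receptor, read 142 and 138 on the labelled knockout heme and vehicle arrays and 211.5 and 258 on the wild-type arrays. Its genotype difference was -0.58 with heme and -0.90 with vehicle. The medians over the 14 measured genes of the family lay between -0.05 and 0.07, and those of all genes at level between -0.02 and 0.03.

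Of the ligands and chaperones of the receptors, 16 genes were measured. With heme in the labelled knockout, 13 were at level, 1 was called higher (1.20% of all genes at level) and 0 lower (0.452%). In wild type 12 were at level, 2 were called higher (1.17%) and 1 lower (0.891%). Hp, which encodes the hemoglobin scavenger haptoglobin, read 390 with heme and 125 with vehicle in the labelled knockout (3.12-fold) and 370 with heme and 143 with vehicle in wild type (2.58-fold). Apoe, a ligand of Lrp1, read 121.5 and 219.5 in the labelled knockout (-0.85) and 143 and 358 in wild type (-1.33) with heme and vehicle. Mmp9, a gelatinase cleared through Lrp1, was 2.45-fold higher with heme in wild type (87.5 with heme, 35.7 with vehicle) and 1.76-fold with 32 added to each signal. Mmp9 is also a gene that neutrophils hold in quantity. The part of neutrophil content in the Hp and Mmp9 differences was not tested.

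Neither chaperone of Lrp1 named here, Lrpap1 or Calr, was called with heme. Lrpap1, the receptor-associated protein that escorts Lrp1 through the secretory pathway, read 934 with heme and 1370 with vehicle in the labelled knockout (-0.55) and 940 and 1345 in wild type (-0.52). Calr, or calreticulin, differed by -0.89 in the labelled knockout and -0.81 in wild type. Lrp1 itself differed by -0.46 and -0.40 in the same order. Hpx, which encodes the heme-binding ligand of Lrp1, read between 19.9 and 28.3 on the 4 arrays, below the floor. Between genotypes 0 of the 12 genes of this list at level were called with either treatment. Of all genes at level, 0.519% were higher and 0.973% lower with heme, and 0.525% and 1.14% with vehicle. Tfpi, an inhibitor of coagulation, had the widest difference with heme (55.0 in the labelled knockout, 28.3 in wild type). Its wild-type heme signal lay below the floor, so the size of that difference is uncertain.

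Adaptors and signalling partners, 13 measured genes of 15, gave 0 calls in all 5 comparisons. At level were 10 for heme in the labelled knockout and 11 in each other comparison. Of all genes at level, 0.452% to 1.20% were called in each direction. Dab2, an endocytic adaptor of LDL receptor family members, read 829 and 1260 in the labelled knockout (-0.60) and 1166 and 1734 in wild type (-0.57) with heme and vehicle. The wild-type difference was -0.23 as the mean over its probe sets, so the probe sets of Dab2 disagree. Tlr2, which signals together with Cd36, read 275 in labelled knockout vehicle and 502 in wild-type vehicle (-0.87).

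Lipid handling genes that act after uptake were all at level, 16 measured of 18, and 0 were called. The share of all genes at level called in each direction was 0.452% to 1.20%. Their median heme difference was -0.09 for the labelled knockout and -0.25 for wild type. The cholesterol exporter gene Abcg1 read 557 and 942 in the labelled knockout (-0.76) and 572 and 947 in wild type (-0.73) with heme and vehicle. Plin2, which coats lipid droplets, read 951 in labelled knockout heme and 534 in wild-type heme (0.83). Pparg, a nuclear receptor known to drive Cd36, read 529 and 677 on the labelled knockout heme and vehicle arrays and 393 and 522 on the wild-type ones. Cd36 stayed within 1.05-fold, and a link between Pparg and Cd36 was not tested.

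**Figure D4:**
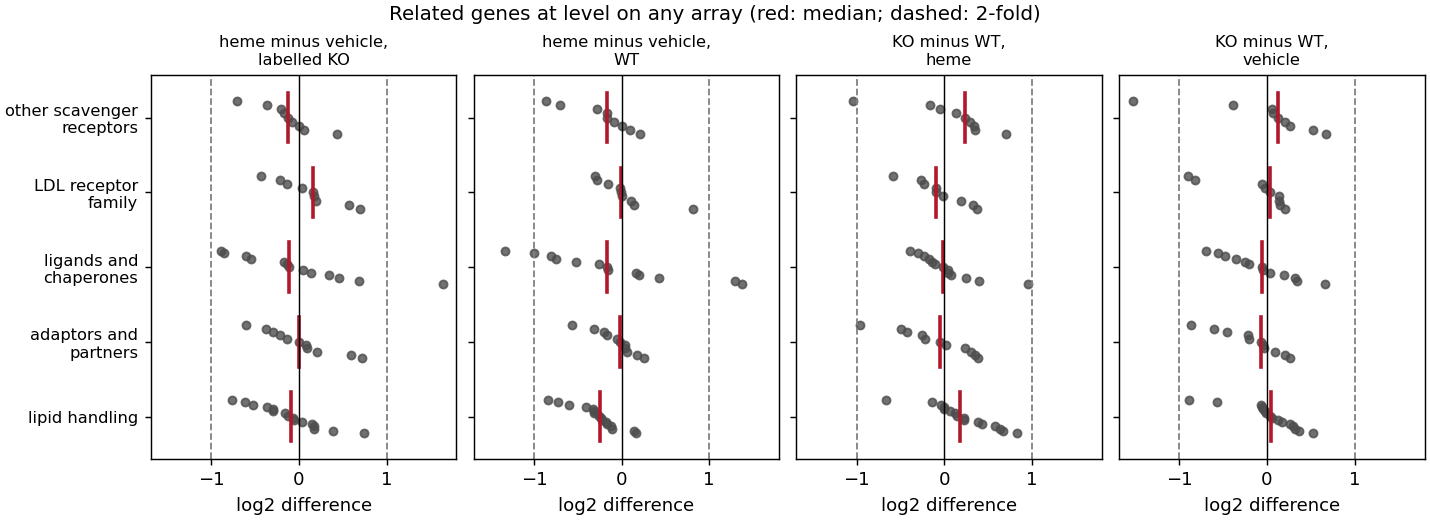
Log2 differences (horizontal axis) of genes related to the receptors, in 5 lists (rows) and 4 comparisons (panels; KO stands for labelled knockout, WT for wild type); points are single genes that reached the floor on any array, red bars are medians of the points drawn, which leave out genes below the floor, and dashed lines mark 2-fold. The points past 2-fold with heme are Hp at 1.64 in the labelled knockout and 1.37 in wild type, and Mmp9 at 1.29 and Apoe at -1.33 in wild type. Between genotypes they are Cxcl16 at -1.04 with heme and -1.53 with vehicle. The regulators are not drawn. The widest shift of a median is that of lipid handling with heme in wild type, at -0.25.

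Among 16 measured regulators, Spic, a transcription factor of red pulp macrophages, was lowest on the wild-type vehicle array and highest on the labelled knockout heme array, as Marco was. It read 678.5 and 298 on the labelled knockout heme and vehicle arrays and 429 and 17.0 on the wild-type ones, but its wild-type heme array lay above the labelled knockout vehicle array, which was not so for Marco. Egr2, a zinc finger factor of alternatively activated macrophages, was 2.01-fold lower in the labelled knockout with vehicle (1008, against 2025 in wild type). That call was lost after a repeated quantile normalization (-0.95), after lowess centring (-0.94) and with 32 added (-0.98). Nfe2l2, which encodes the activator that competes with Bach1 for its sites, read 1132 and 1087 on the labelled knockout heme and vehicle arrays and 1282 and 1497 on the wild-type arrays. Of 15 regulators at level, 1 was called higher with heme in each genotype (1.20% of all genes in the labelled knockout, 1.17% in wild type). None was called lower with heme (0.452% and 0.891%). Between genotypes in vehicle, 1 was called higher (0.525%) and 1 lower (1.14%). With heme 0 were called between genotypes (0.519% of all genes higher, 0.973% lower). Spic alone was called in the difference between the heme responses, where 0.879% of all genes were lower and 1.17% higher. Spic stood there at -3.47 as deposited and -2.13 with 32 added to each signal. Its wild-type vehicle signal lay below the floor, so the size of that difference is uncertain.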

How the data were processed

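Gene expression was measured in 4 samples on a mouse whole-transcript array. The authors deposited 1 intensity per probe set after RMA, per the submitters' processing notes. The series' design text, which describes other cells, names quantile normalization, a step of RMA. The linear scale was taken from the values; any further centring or rescaling stays unknown, and no scanner data or detection calls were used. The distance of dim signals to background is therefore unknown.

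Values were taken to log2 and subtracted between arrays. Of 35556 probe sets, 21789 had a single gene symbol, 1621 several, and 12146 were not listed; the brightest probe set stood for a gene. The members and lists were chosen with earlier results of these data known. Named were the 8 receptors and the 5 profiles nearest to any member spanning 2-fold or more. For each list and comparison, up to 4 called genes (or the 2 widest differences at level) were picked. Picks without a call are given only in part. Lrpap1, Calr, Hpx, Cd163, Pparg, Nfe2l2, Bach1, Itgax, Fcgr1, Cxcr2, S100a8 and S100a9 were added for their roles, with values seen. Camp was added for its order of arrays. Some listed genes are not reported here. The calling step was tested on simulated data. Alternatives were 1.5-fold and 3-fold rules, no level filter, a filter at the 75th percentile (signal 106), quantile normalization again, lowess centring, 32 added before log2, and averaged probe sets per gene. Tools were pandas 2.3.3 and numpy 2.4.6 under Python 3.11.15, with matplotlib 3.10.9 and statsmodels 0.14.6.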

Additional observations from a re-analysis of the deposited data

Results flagged for a closer look

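Scarb2 differed with heme in opposite directions in the 2 genotypes: the log2 difference was 0.08 in the labelled knockout and -0.07 in wild type. Both are inside the robust SD of 0.28, and the difference between them was not tested.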

How the results depend on the processing

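Of 160 values of the 8 receptors' differences under the alternatives that change the values, 159 moved by less than the robust SD of all genes and 0 called ones changed sign; the exception was Marco between genotypes in vehicle, at 2.11 with 32 added. The number of receptors called was the same in 74 of 80 cases. Under the 3-fold rule 0 were called higher with heme in wild type and 0 higher between genotypes with heme. Under the 1.5-fold rule 1 was called lower between genotypes in vehicle (Olr1). For the difference between the heme responses, 1 was called lower (Marco) under the 1.5-fold rule, after repeated quantile normalization and after lowess centring. Of 240 list counts 208 stayed within 1.5 times, and of 220 values of other named genes 209 moved by less than the robust SD. No paired analysis was possible because each group has 1 array, and no array could be left out for the same reason. Signals near the floor, such as those of Stab1, limit what a small difference shows.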
